A study of Danio rerio with 3 samples.

Results

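The genes described here are 42 genes of mitosis, kinetochores and condensin, measured by RNA-seq in whole zebrafish embryos (Danio rerio, Tuebingen strain) 24 hours after fertilization. They are the rows of the deposited table whose symbol is on a list of 44 mitosis genes, out of 25961 genes in all. Of the 2 listed genes without such a row, birc5a was not analysed here, and cyclin B1 has a row that carries its description but no symbol, so it is given once below and not counted. Embryos were injected at the 1-cell stage with a morpholino, an antisense reagent that binds an RNA and keeps it from being translated or spliced. The 3 groups were a standard control morpholino at 3 ng, a morpholino against hnrnpaba at 3 ng and the same morpholino at 6 ng, each with 1 library from 30 pooled embryos. The target, hnrnpaba, is a zebrafish counterpart of human HNRNPAB, an RNA-binding protein. The 6 ng library thus differs from the control in the mass of morpholino as well as in its target. The control column of the table names neither a morpholino nor a dose and was matched to the control library as the 1 control of the series, and all differences from the control depend on that match.

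In a dividing cell, cyclin B and its kinase Cdk1 start mitosis, condensin and topoisomerase II compact and untangle the chromosomes, and kinetochores attach them to spindle microtubules. The spindle checkpoint holds back anaphase until every chromosome is attached, after which the anaphase-promoting complex marks cyclins and securin for destruction and cytokinesis divides the cell. Many of these transcripts peak in late interphase and mitosis, so that in a whole embryo their level is known to follow both how many cells divide and how much RNA each dividing cell holds. In these bulk libraries fewer dividing cells and less RNA per dividing cell cannot be told apart. The roles named below are those described for the human or yeast proteins.

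The libraries held 13557636 to 17748075 mapped fragments, as recovered from the steps between low values, and each was the only one of its group. There is thus no replicate spread to set a difference against and no p-value, and what follows compares single libraries. Levels are FPKM, mapped fragments corrected for the length of the gene model and for library depth. A fold is the ratio of 2 FPKM values, and the range in brackets after it is its 95% exact interval for counting error alone. Differences are log2 ratios of FPKM + 1, and lists were summarised over the 16429 genes whose mean reached 1 FPKM, which all 42 mitosis genes passed. A gene was counted as lower or higher at 1.5-fold or at 2-fold on that scale. Printed folds carry no pseudocount, so some lie past a threshold that the gene did not reach on that scale. The targeted transcript itself had 442 FPKM in the control, with 459 at 3 ng and 342 at 6 ng. A morpholino need not lower its target's RNA, so these levels do not check the labels.

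Most of the 42 mitosis genes were lower in both hnrnpaba morphant libraries than in the control, by modest amounts. On the log2(FPKM + 1) scale, farthest below it were ncapd2, smc2, bub1, smc4 and top2a at 3 ng and bub1, nusap1, smc4, smc2 and ncapd2 at 6 ng, which encode condensin subunits, topoisomerase II alpha, a checkpoint kinase and a spindle protein. The cytokinesis genes prc1a, prc1b and ect2 lay above it in both libraries. Summed over the 42 genes, the level was 1402 FPKM in the control, and it was 1077 at 3 ng and 970.3 at 6 ng. Their median level was 26.5 FPKM in the control against 6.53 FPKM for all genes that passed the filter, and single genes ranged there from 4.69 FPKM for spc25 to 83.9 FPKM for ube2c. Behind each value stood 188 to 5177 fragments.

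At 3 ng, 8 of the 42 genes were at least 1.5-fold lower, a share of 19.0% beside 9.49% of all genes tested, and 0 were at least 1.5-fold higher beside 11.6%. At 2-fold, 0 of the 42 were lower beside 2.2% of all genes, and 0 higher beside 3.68%. In all 38 of 42 had a negative difference at 3 ng, where 48.1% of all genes did, and 4 a positive one, where 51.9% did. The counting interval of the fold lay below 1 for 32 genes, a share of 76.2% beside 29.2%, and above 1 for 4 (ccnb2, prc1a, prc1b and ect2), beside 32% of all genes. Intervals are narrower for genes with more fragments, and the 42 had a higher median level and longer gene models than all genes tested. Shares of intervals that exclude 1, here and below, thus depend on fragment number as well as on fold. The median difference was -0.35, beside 0.02 over all genes tested. Of the 8, the condensin and topoisomerase genes ncapd2, smc2, smc4 and top2a made up 4, and the others were bub1, kif20a, cenpf and ndc80.

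At 6 ng, 18 of the 42 genes were at least 1.5-fold lower, a share of 42.9% beside 12.2% of all genes tested, and 0 were at least 1.5-fold higher beside 18%. At 2-fold, 4 were lower (bub1, nusap1, smc4 and smc2), a share of 9.52% beside 4.53% of all genes, and 0 were higher beside 6.28%. A negative difference was seen in 39 of 42, where 44% of all genes had one, and a positive one in 3, where 56% had one. The counting interval lay below 1 for 37 genes (88.1%, beside 28%) and above 1 for 3, namely prc1a, prc1b and ect2 (beside 38.5%). The median difference was -0.54, beside 0.08 over all genes. Both doses were set against the same control library, so their differences from it are not independent of each other.

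**Figure D1:**
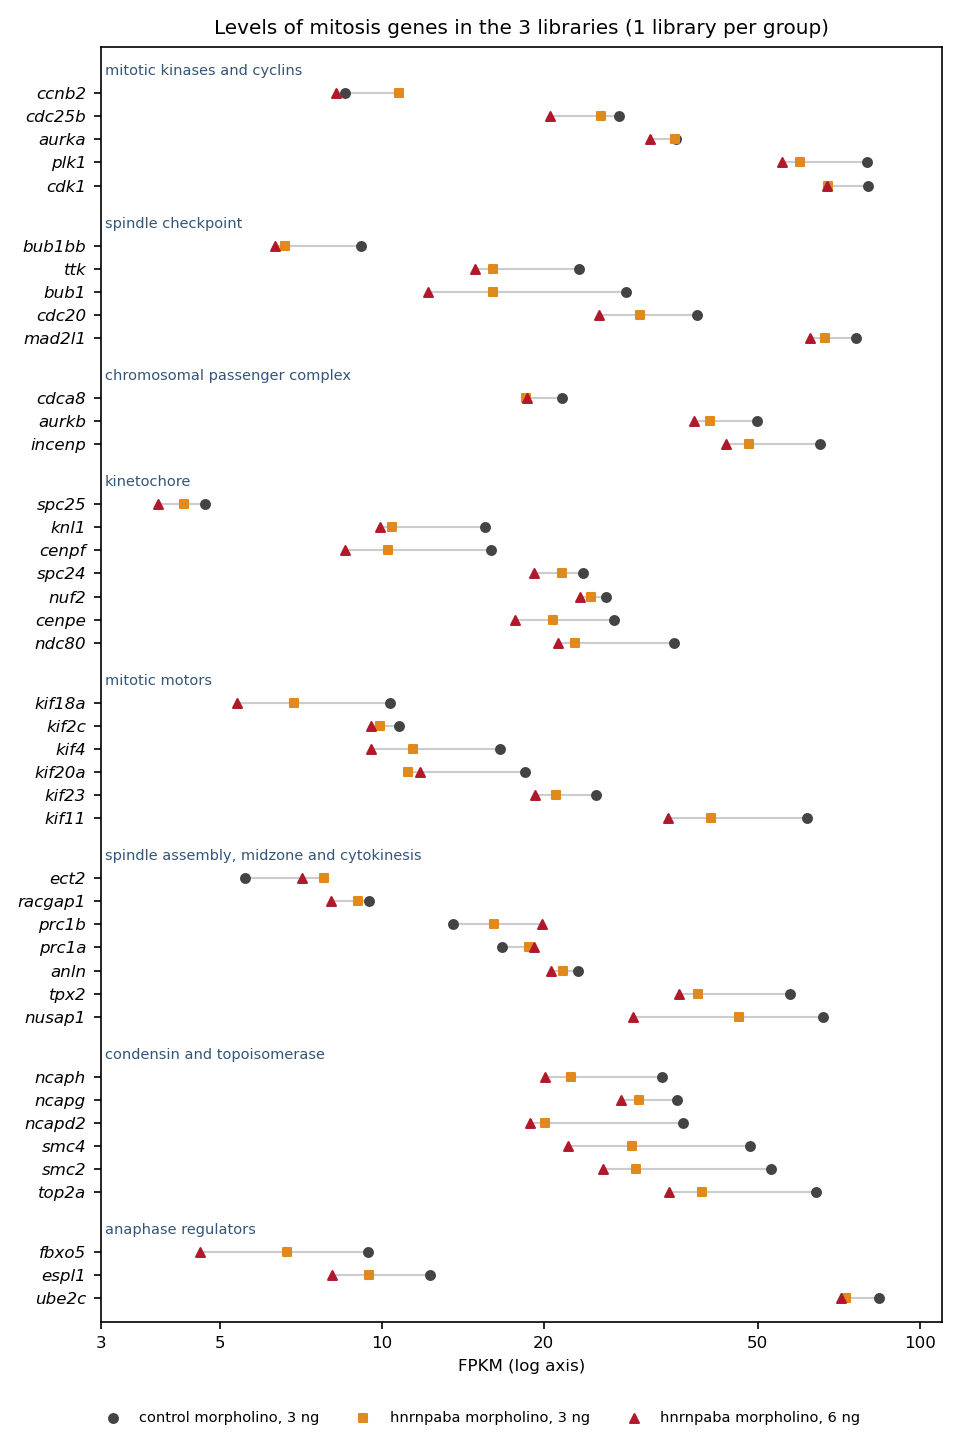
Level of each of the 42 mitosis genes in FPKM (horizontal log axis) in the 3 libraries, grouped by role, with 1 point per library and a grey line over their range. For 38 genes the 3 ng point lies left of the control point, and for prc1a, prc1b and ect2 both morphant points lie right of it.

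Condensin I is the complex that loops and stiffens mitotic chromosomes, built from the ATPases Smc2 and Smc4, the kleisin Ncaph and the HEAT-repeat subunits Ncapd2 and Ncapg. This group, taken with top2a, had the lowest medians of the 8 role groups at both doses, -0.70 at 3 ng and -0.90 at 6 ng. The ATPase gene smc4 (ENSDARG00000038882, chromosome 15, 1534644 to 1573129, plus strand, build not given in the sources used here) stood at 48.4, 29.2 and 22.1 FPKM in the control, 3 ng and 6 ng libraries. It was thus 0.602-fold the control level at 3 ng (0.570 to 0.636) and 0.457-fold at 6 ng (0.428 to 0.488). Its partner smc2 (ENSDARG00000017744, chromosome 1, 19535120 to 19561801, plus strand) had levels of 53.0, 29.7 and 25.8 FPKM, with folds of 0.560 (0.519 to 0.605) and 0.487 (0.446 to 0.531). The ratio of the smc4 fold to the smc2 fold over the control was 0.939 at 6 ng with an interval that held 1 (0.843 to 1.05), while from 3 ng to 6 ng smc4 differed more than smc2 (ratio 0.874, 0.779 to 0.980).

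The genes of the other condensin I subunits were also lower at both doses, but not all by the same fold. ncapd2 stood at 36.3, 20.1 and 18.9 FPKM, and at 0.553-fold (0.522 to 0.586) it was the lowest of the 42 genes at 3 ng. The kleisin gene ncaph stood at 33.2, 22.4 and 20.1 FPKM, a fold of 0.606 at 6 ng (0.552 to 0.664). ncapg differed least, at 35.4, 30.1 and 27.9 FPKM, or 0.850-fold (0.798 to 0.905) and 0.787-fold (0.735 to 0.844). The fold of smc4 was 0.580 times that of ncapg at 6 ng (0.528 to 0.638), and that of ncapd2 was 0.659 times (0.601 to 0.724). The transcripts of these subunits thus differed in fold by more than counting error. In the control, ncapd2, ncapg and ncaph lay at 33.2 to 36.3 FPKM, below smc2 and smc4 at 53.0 and 48.4 FPKM. At 6 ng, ncapd2, ncapg and ncaph spread from 18.9 to 27.9 FPKM. The smc2 and smc4 levels there, 25.8 and 22.1 FPKM, lay within that range. top2a, whose product untangles sister DNA and is the main scaffold enzyme of mitotic chromosomes, stood at 64.1, 39.3 and 34.2 FPKM, a fold of 0.613 (0.588 to 0.640) and then 0.534 (0.510 to 0.560). The pairs set against each other here and below were chosen after their values were seen.

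In the group of mitotic kinases and cyclins the differences were smaller, the median being -0.11 at 3 ng and -0.25 at 6 ng. At either dose 0 of its 5 genes were 1.5-fold lower, beside 9.49% and 12.2% of all genes. The kinase genes bub1, ttk and aurkb were placed in other groups. Of these, bub1 and ttk were at least 1.5-fold lower at 6 ng, and aurkb was not. The polo-like kinase gene plk1, whose product drives mitotic entry and spindle assembly, stood at 79.9, 59.9 and 55.3 FPKM. At 0.693-fold at 6 ng (0.654 to 0.733) it was the lowest of this group. The master kinase gene cdk1 stood at 80.3, 67.6 and 67.1 FPKM, and its morphant levels did not differ from each other beyond counting error (fold 0.992, 0.921 to 1.07). Cyclin B1, the row without a symbol (ENSDARG00000051923), stood at 71.7, 56.6 and 51.9 FPKM, or 0.789-fold (0.746 to 0.835) and 0.724-fold (0.680 to 0.771) the control level. The second B-type cyclin, ccnb2, went another way, with 8.53, 10.8 and 8.21 FPKM, so that its 3 ng library was the highest, at 1.26-fold (1.06 to 1.51). At 6 ng its counting interval held 1 (0.963-fold, 0.787 to 1.18).

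The spindle kinase gene aurka, whose product matures centrosomes, stood at 35.2, 35.1 and 31.6 FPKM. Its fold at 3 ng was 0.997 (0.912 to 1.09). cdc25b, which encodes the phosphatase that activates Cdk1, stood at 27.6, 25.5 and 20.5 FPKM and lay further below the control at 6 ng (0.743-fold, 0.682 to 0.810) than at 3 ng (0.924-fold, 0.857 to 0.997).

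The spindle checkpoint group held the gene farthest below the control at 6 ng. bub1 (ENSDARG00000077029, chromosome 20, 2610550 to 2641246, minus strand), whose kinase marks centromeric chromatin and recruits checkpoint proteins to kinetochores, stood at 28.5, 16.1 and 12.2 FPKM. Its folds were 0.565 at 3 ng (0.523 to 0.610) and 0.427 at 6 ng (0.390 to 0.469), with 642 fragments at 6 ng and 1616 in the control. The related gene bub1bb, which encodes the zebrafish BubR1 counterpart, stood at 9.16, 6.61 and 6.32 FPKM, 0.690-fold at 6 ng (0.617 to 0.772). mad2l1, the inhibitor that binds Cdc20, differed less, at 76.2, 66.6 and 62.5 FPKM. The bub1 fold was 0.521 times the mad2l1 fold at 6 ng (0.457 to 0.595), beyond counting error. The kinase gene ttk stood at 23.3, 16.1 and 14.9 FPKM, and cdc20, the activator of the anaphase-promoting complex, at 38.6, 30.2 and 25.4 FPKM. All 5 genes of the group had counting intervals below 1 at both doses, where 29.2% and 28% of all genes did. At 6 ng, 3 of 5 were at least 1.5-fold lower, beside 12.2% of all genes.

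The chromosomal passenger complex corrects faulty attachments and directs cytokinesis. Its scaffold gene incenp stood at 65.2, 48.2 and 43.6 FPKM, its kinase gene aurkb at 49.7, 40.8 and 38.1 FPKM, and cdca8, which encodes borealin, at 21.6, 18.5 and 18.6 FPKM. The control was highest for each of the 3. At either dose 0 of them were 1.5-fold lower, beside 9.49% and 12.2% of all genes. incenp was 0.669-fold at 6 ng (0.626 to 0.715) and cdca8 was 0.861-fold (0.754 to 0.982).

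The median of the kinetochore genes was -0.36 at 3 ng and -0.58 at 6 ng. At least 1.5-fold lower were 2 and 3 of 7, beside 9.49% and 12.2% of all genes. The transcripts of the 4-part Ndc80 complex, the main microtubule anchor of the kinetochore, did not all lie at the same fold of the control. ndc80 itself stood at 34.9, 22.9 and 21.3 FPKM, a fold of 0.655 (0.601 to 0.714) and then 0.609 (0.553 to 0.670). Its direct partner nuf2 stood at 26.1, 24.5 and 23.4 FPKM, and its counting interval held 1 at both doses (0.843 to 1.05 at 3 ng, 0.796 to 1.01 at 6 ng). spc24 stood at 23.6, 21.7 and 19.2 FPKM and spc25 at 4.69, 4.29 and 3.83 FPKM, each with an interval that held 1 at 3 ng. The ndc80 fold was 0.697 times that of nuf2 at 3 ng (0.608 to 0.800) and 0.679 times at 6 ng (0.585 to 0.789). In FPKM the spc25 transcript was the lowest of the 4 in each library. This rank depends on its recovered gene model of 5193 bases, beside 801 for spc24. In fragments spc25 had 355, 395 and 270 and spc24 had 276, 308 and 208.

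The 3 genes of larger kinetochore proteins were also lower at both doses, with intervals below 1. cenpf, which encodes a coiled-coil protein of the outer kinetochore, stood at 15.9, 10.3 and 8.55 FPKM, a fold of 0.645 at 3 ng (0.608 to 0.683) and 0.537 at 6 ng (0.502 to 0.574). The scaffold gene knl1, whose product docks Bub1 and BubR1, stood at 15.5, 10.4 and 9.90 FPKM (0.671-fold at 3 ng, 0.617 to 0.729, and 0.637-fold at 6 ng, 0.581 to 0.699). cenpe, a kinesin that carries chromosomes to the spindle equator, stood at 27.0, 20.8 and 17.7 FPKM (0.772-fold at 3 ng, 0.735 to 0.811, and 0.654-fold at 6 ng, 0.619 to 0.692).

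Motor genes had medians of -0.51 at 3 ng and -0.67 at 6 ng. At least 1.5-fold lower were 1 and then 4 of 6, beside 9.49% and 12.2% of all genes. kif11, the kinesin that pushes spindle poles apart, stood at 61.6, 40.9 and 34.1 FPKM, which made it 0.553-fold at 6 ng (0.522 to 0.587). kif18a, which limits the length of kinetochore microtubules, stood at 10.3, 6.87 and 5.38 FPKM (0.520-fold, 0.443 to 0.609). kif4, the chromokinesin that works with condensin, stood at 16.6, 11.4 and 9.53 FPKM (0.574-fold, 0.531 to 0.619). These 3 were lower at 6 ng than at 3 ng with intervals below 1. kif20a, a midzone kinesin, stood at 18.5, 11.2 and 11.8 FPKM, and its 2 morphant levels did not differ beyond counting error (fold 1.05, 0.948 to 1.17). Less far from the control were the midzone kinesin gene kif23, at 24.98, 21.1 and 19.2 FPKM, and the microtubule depolymerase gene kif2c, at 10.8, 9.93 and 9.52 FPKM. The fold of kif18a was 0.589 times that of kif2c at 6 ng (0.488 to 0.710).

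Genes of spindle assembly, the midzone and cytokinesis were the most mixed group. At both doses 4 of 7 were lower, where 48.1% and 44% of all genes were, and 3 higher, where 51.9% and 56% were. Here nusap1 (ENSDARG00000002403, chromosome 13, 33251721 to 33256667, minus strand), which encodes a microtubule bundling protein of the chromosome-near spindle, stood at 66.2, 46.1 and 29.3 FPKM. Its fold was 0.697 at 3 ng (0.651 to 0.746) and 0.442 at 6 ng (0.406 to 0.482). tpx2, the activator of Aurora A, stood at 57.3, 38.8 and 35.7 FPKM (0.623-fold at 6 ng, 0.590 to 0.657). At 3 ng the folds of nusap1 and tpx2 did not differ beyond counting error (ratio 1.03, 0.949 to 1.12), and at 6 ng the nusap1 fold was 0.711 times that of tpx2 (0.643 to 0.786).

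The 3 genes of this group above the control were prc1b, prc1a and ect2. prc1b (ENSDARG00000005993, chromosome 7, 50353297 to 50367642, minus strand), 1 of the paralogs of the protein that crosslinks midzone microtubules, stood at 13.5, 16.2 and 19.8 FPKM. It was 1.20-fold at 3 ng (1.06 to 1.35) and 1.47-fold at 6 ng (1.30 to 1.65), the highest of the 42 at that dose. Its paralog prc1a stood at 16.7, 18.8 and 19.2 FPKM (1.15-fold at 6 ng, 1.06 to 1.25), and the prc1b fold was 1.28 times that of prc1a (1.11 to 1.47). ect2, which encodes the exchange factor that activates RhoA at the division plane, stood at 5.56, 7.81 and 7.10 FPKM, or 1.40-fold (1.28 to 1.53) and 1.28-fold (1.16 to 1.40). None of the 3 reached 1.5-fold on the scale with the pseudocount. The ring scaffold gene anln (23.2, 21.7 and 20.6 FPKM) and the centralspindlin gene racgap1 (9.46, 9.01 and 8.03 FPKM) lay a little below the control at 6 ng, at 0.889-fold (0.830 to 0.952) and 0.849-fold (0.766 to 0.940).

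Of the anaphase regulators, fbxo5, which encodes the Emi1 inhibitor of the anaphase-promoting complex, stood at 9.44, 6.66 and 4.59 FPKM. Its folds were 0.706 (0.633 to 0.786) and 0.487 (0.426 to 0.555), past 2-fold without the pseudocount and not with it. The separase gene espl1 stood at 12.3, 9.48 and 8.07 FPKM (0.656-fold at 6 ng, 0.560 to 0.766). ube2c, the conjugating enzyme that works with the anaphase-promoting complex, stood at 83.9, 73.0 and 71.3 FPKM and remained the most abundant of the 42 genes in each library. The fbxo5 fold was 0.573 times that of ube2c at 6 ng (0.490 to 0.670).

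**Figure D2:**
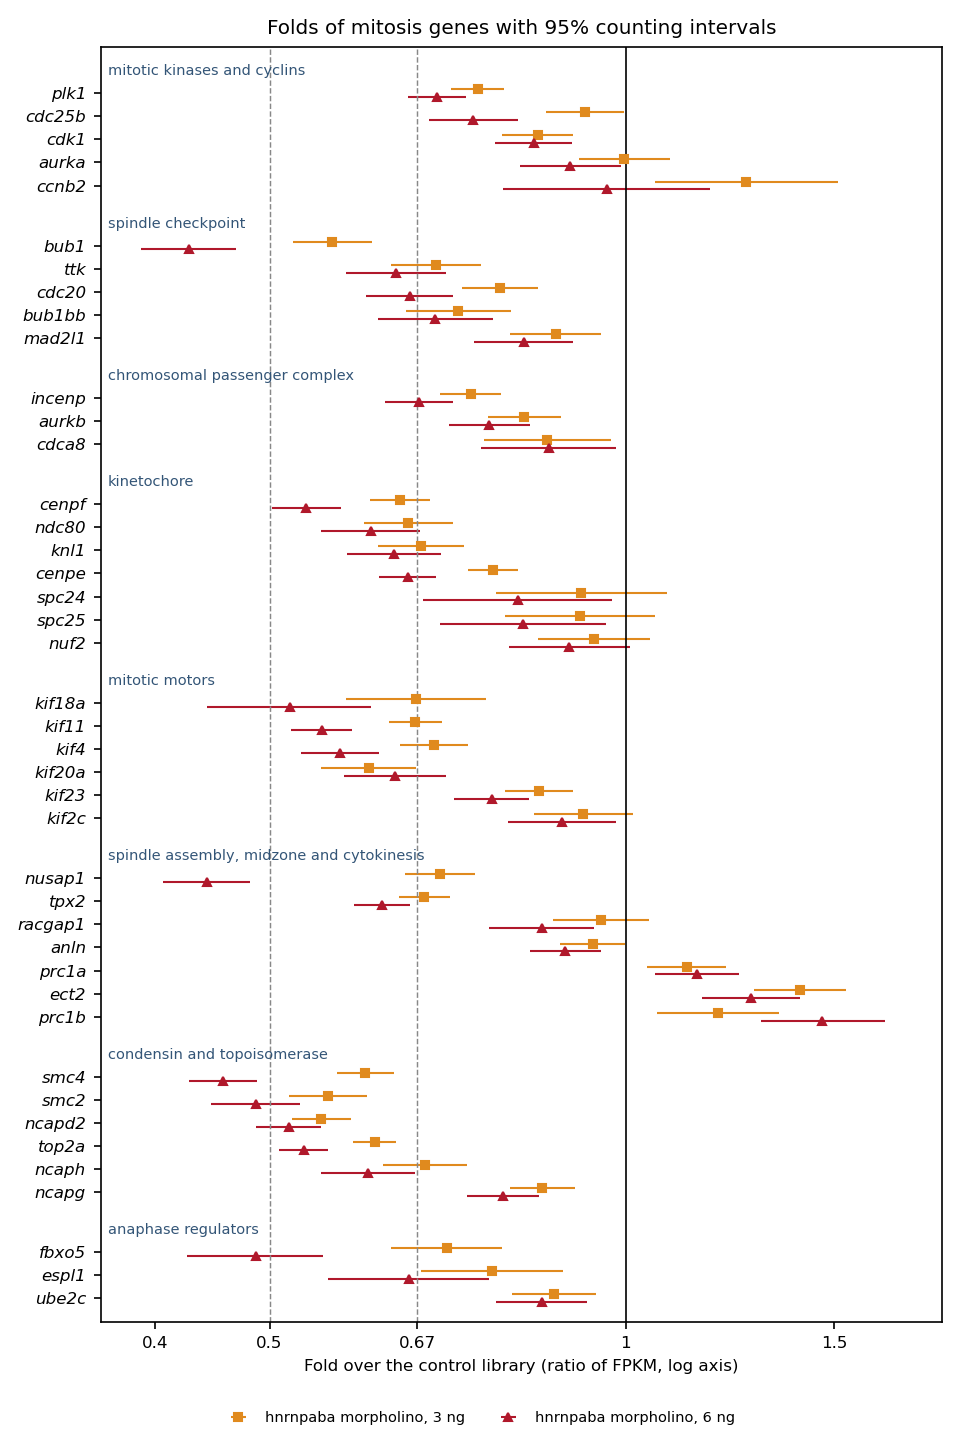
Fold of each mitosis gene over the control library (horizontal log axis, ratio of FPKM) at 3 ng and 6 ng, with bars for the 95% exact counting interval and dashed lines at 1.5-fold and 2-fold lower. bub1, nusap1, smc4, smc2 and fbxo5 lie left of the 2-fold line at 6 ng, and prc1a, prc1b and ect2 lie right of 1 at both doses.

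A direct comparison of the morphant libraries, 6 ng against 3 ng, leaves the control out. Here 1 of the 42 genes, nusap1, was at least 1.5-fold lower at 6 ng, a share of 2.38% beside 3.79% of all genes, and 0 were 1.5-fold higher beside 5.17%. The nusap1 level at 6 ng was 0.635-fold that at 3 ng (0.582 to 0.693). The next lowest was fbxo5 at 0.690-fold (0.602 to 0.789), followed by bub1 at 0.756-fold (0.685 to 0.834) and smc4 at 0.759-fold (0.708 to 0.813). In all 38 of 42 differences were negative, and 4 were positive, where 42.5% and 57.5% of all genes were, and the counting interval lay below 1 for 24 (57.1%, beside 17.7%). The median was -0.13, beside 0.05 over all genes. The interval lay above 1 for prc1b alone among the 42 (1.23-fold, 1.099 to 1.37), where it did for 28.2% of all genes.

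**Figure D3:**
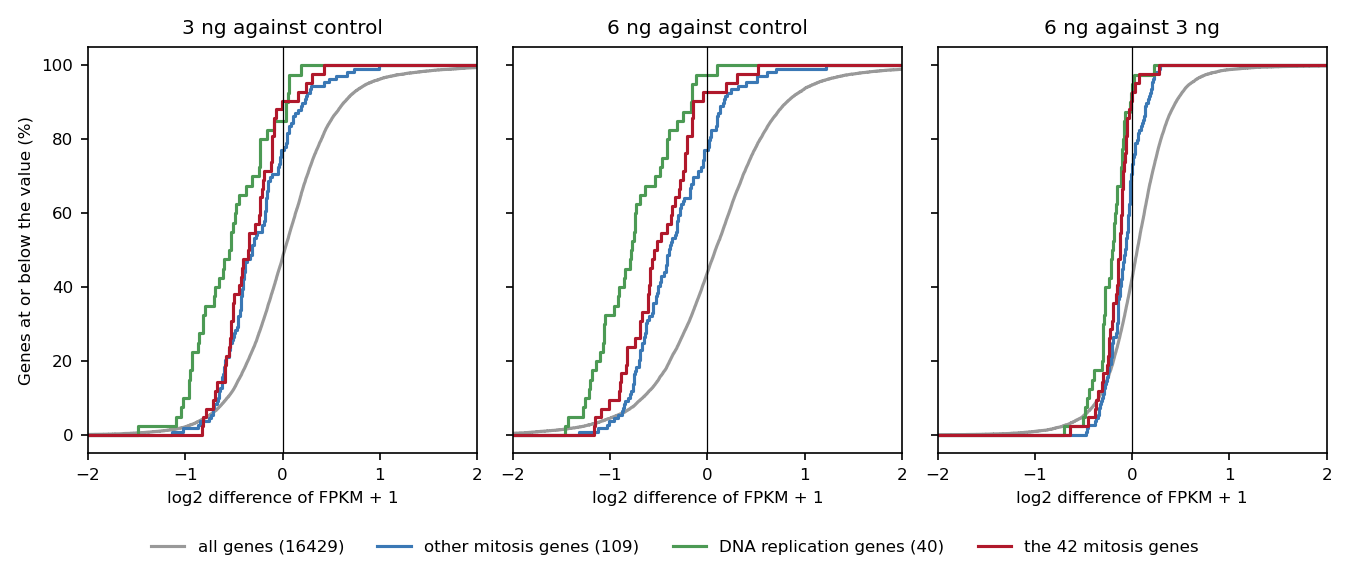
Share of genes (vertical axis, %) at or below each log2 difference of FPKM + 1 (horizontal axis) in the 3 comparisons, for the 42 mitosis genes, 109 other mitosis genes, 40 DNA replication genes and all 16429 genes tested. The line of the 42 genes crosses 50% at -0.35, -0.54 and -0.13, and the line of all genes at 0.02, 0.08 and 0.05.

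A longer list of 122 other mitosis genes was set beside the 42. Like the lists of replication genes and cell type markers below, it was chosen with earlier results of these data known. Of the 122 genes, 102 were matched by the table's symbol, 9 through a table of gene names and 11 not at all, and 109 passed the filter. At 3 ng, 22 of 109 were at least 1.5-fold lower (20.2%, beside the 9.49% of all genes) and 3 higher (beside 11.6%), with a median of -0.32. At 6 ng, 35 of 109 were at least 1.5-fold lower (32.1%, beside 12.2%) and 3 higher (beside 18%), with a median of -0.39. At 2-fold, 4 were lower at 6 ng, a share of 3.67% beside 4.53% of all genes, and 1 was higher beside 6.28%, so at this threshold the longer list held no larger share than all genes. The 4 were cenpk, a subunit of the inner kinetochore, at 11.9, 6.10 and 4.19 FPKM from 98, 61 and 32 fragments, the cohesin subunit gene stag1b at 29.8, 14.2 and 13.2 FPKM, the spindle pole gene aspm at 21.7, 12.8 and 10.1 FPKM, and cita, which encodes the citron kinase of the cleavage furrow, at 5.76, 3.62 and 2.35 FPKM. stag1b was also past 2-fold at 3 ng, as was ensab, an inhibitor of the phosphatase PP2A, at 11.5, 4.68 and 5.91 FPKM. The higher gene was plk3, a polo-like kinase of the stress response, at 19.3, 39.4 and 46.1 FPKM (2.39-fold at 6 ng, 2.22 to 2.58).

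By section of the longer list, values are given with no test between sections. At 6 ng the median of spindle and cytokinesis genes was -0.54, and 10 of 24 were at least 1.5-fold lower, condensin II and cohesin genes -0.49 with 8 of 17, centromere and kinetochore genes -0.40 with 8 of 30, and cyclins, kinases and transcription factors of mitotic genes -0.37 with 8 of 23. The anaphase-promoting complex had a median of -0.03 with 1 of 15 lower (anapc7) and 1 higher (anapc13), near the median of all genes. Of all genes tested, 12.2% were at least 1.5-fold lower at 6 ng and 18% at least 1.5-fold higher. Of the condensin II subunit genes on the longer list, ncapg2 stood at 11.1, 6.39 and 6.89 FPKM (0.618-fold at 6 ng, 0.544 to 0.700) and ncaph2 at 9.72, 7.14 and 7.06 FPKM (0.726-fold, 0.650 to 0.812). The third on that list, ncapd3, was not lower, at 16.2, 16.7 and 18.8 FPKM (1.16-fold, 1.07 to 1.26). Of the transcription factors known to switch on mitotic genes, foxm1 stood at 17.7, 13.2 and 9.86 FPKM and mybl2b at 22.3, 12.7 and 12.4 FPKM. At 6 ng both were 0.56-fold the control level (0.499 to 0.619 and 0.510 to 0.609). The proliferation marker gene mki67 stood at 84.2, 54.8 and 42.8 FPKM, 0.509-fold at 6 ng (0.492 to 0.527). The condensin II genes, foxm1, mybl2b, mki67 and the 2 genes named for the anaphase-promoting complex were singled out after their values were seen.

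**Figure D4:**
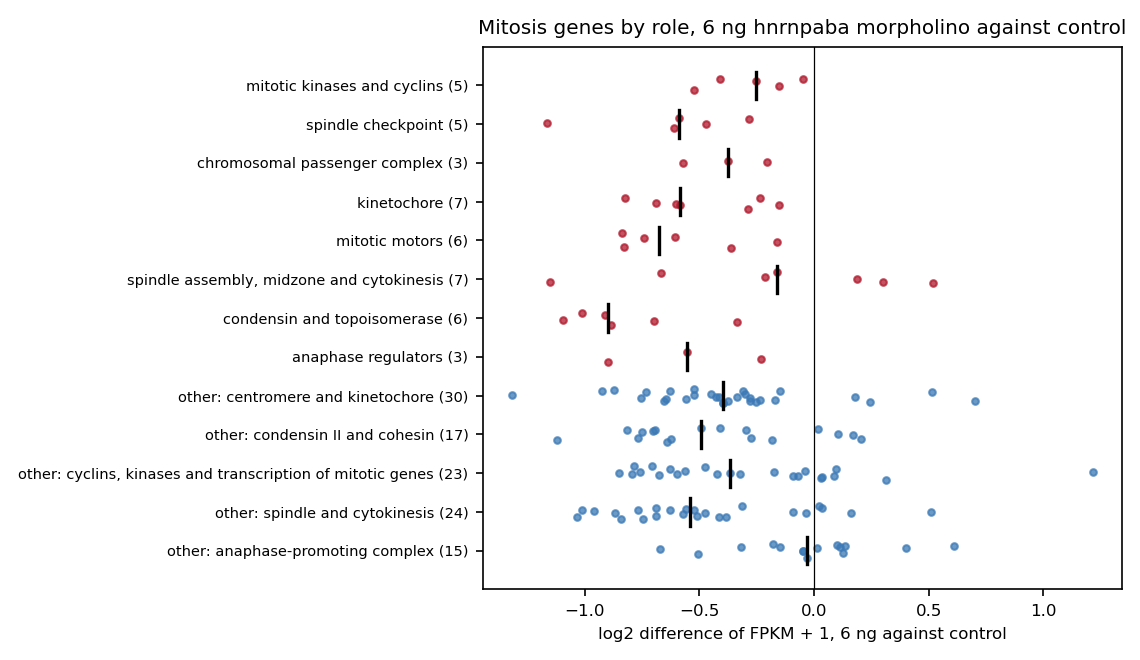
log2 difference of FPKM + 1 between the 6 ng and control libraries (horizontal axis) for each gene, by role, with the 8 groups of the 42 genes above and 5 sections of the longer list below, the number of genes in brackets and a black bar at each median. Condensin and topoisomerase lies lowest at -0.90 and the anaphase-promoting complex nearest to 0 at -0.03.

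The 40 genes of DNA replication, a list that shares no member with the 42, had medians of -0.54 at 3 ng and -0.78 at 6 ng. At least 1.5-fold lower were 19 of 40 at 3 ng (47.5%, beside 9.49% of all genes) and 27 of 40 at 6 ng (67.5%, beside 12.2%). Whether replication and mitosis genes differed in fold was not tested.

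RNA levels of cell type markers also differed between these libraries. At least 2-fold lower were 2.2% of all genes tested at 3 ng and 4.53% at 6 ng. At least 2-fold higher were 3.68% and 6.28%. Markers of neural progenitors summed to 599.8 FPKM in the control, and to 354 at 3 ng and 185 at 6 ng. Of these, 4 and then 9 of 12 were at least 2-fold lower, with 0 of 12 at 0 in any library. Their medians were -0.70 at 3 ng and -1.63 at 6 ng, with 11 and then 12 of 12 differences negative and 1 positive at 3 ng. Markers of postmitotic neurons summed to 233, 218 and 175 FPKM, with 0 and then 1 of 8 at least 2-fold lower. The medians of this list were -0.08 and -0.51, with 5 and then 7 of 8 differences negative. Of all genes tested, 48.1% and 44% had a negative difference. Skeletal muscle markers summed to 9148, 9505 and 7877 FPKM, but single genes went both ways. At least 2-fold lower were 0 and then 1 of 8, and 1 of 8 was at least 2-fold higher at each dose. Their differences ran from -0.95 to 1.14 at 3 ng and from -1.54 to 1.30 at 6 ng, with medians of 0.04 and -0.47. Markers of primitive red blood cells summed to 476, 1157 and 1111 FPKM with 5 and then 6 of 8 at least 2-fold higher, and those of presomitic mesoderm to 33.6, 110.1 and 152 FPKM with 6 and then 7 of the 7 that passed the filter higher. No marker of these 4 lists was at 0 in any library. Whether these marker levels reflect cell makeup, and what part they have in the levels of mitosis genes, was not tested.

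Gene length moved with the differences across all genes. The 42 mitosis genes had a median gene model of 3510 bases beside 2233 bases for all genes tested, as recovered from the FPKM steps. A recovered length is the least that gave whole fragments, so the true length can be a multiple of it. Some genes may thus sit among genes shorter than themselves in the sets and bins below. Across the 16429 genes tested, longer genes tended to be lower at 6 ng (Spearman's rho -0.163), and across the 42 the value was -0.221. These values describe genes within the same libraries, and genes are not replicates. When the 42 were split by length into 3 sets of 14, the shortest (801 to 2396 bases) had a median of -0.27 at 6 ng beside 0.16 for the 7276 genes of that length. The middle set (2448 to 4624 bases) had -0.61 beside 0.05, and the longest (4904 to 11212 bases) had -0.53 beside -0.08. After subtraction of the median of equally long genes, the median of the 42 was -0.35 at 3 ng and -0.52 at 6 ng.

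**Figure D5:**
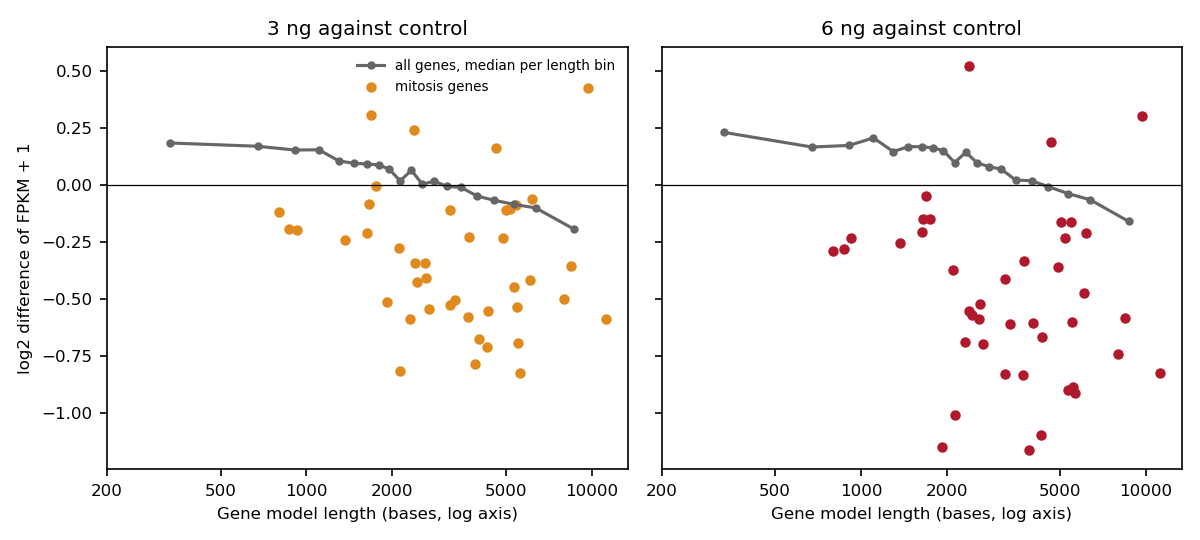
log2 difference of FPKM + 1 from the control (vertical axis) against recovered gene model length in bases (horizontal log axis) for the 42 mitosis genes as points, with the median of all genes in 20 bins of length as a line, at 3 ng and 6 ng. The line falls with length, and 38 and 39 of the 42 points lie below 0.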

How the data were processed

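Total RNA of 30 pooled embryos per library was extracted with Trizol, sequenced on a BGISEQ-500 and mapped to a zebrafish genome and its genes, per the labels' protocols. The authors deposited FPKM values for 25961 genes. No aligner, counting tool, genome build, annotation version or strand setting is named in the labels or the file header, so overlapping and antisense genes and close paralogs cannot be divided with certainty. Of the columns of values, 0 were left unused.

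Fragment counts were rebuilt from the steps between low FPKM values, each of which is worth 1 fragment. Library totals came from short genes taken as unspliced (control 14589056, 3 ng 17748075, 6 ng 13557636). Each gene was then given the least length at which its fragments came out whole, within 0.05, in every library. This gave counts for 25961 genes, 95.8% to 95.96% of each total. Where the true length is a multiple of the one found, lengths and counts are too low and intervals too wide. The steps were checked on simulated data.

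A pseudocount of 1 FPKM was added before log2 ratios were taken, over genes whose mean reached 1 FPKM. The filter uses all 3 libraries. Fold intervals are exact (Clopper-Pearson, conditional on both libraries' fragments), and intervals of ratios of folds use the log-normal approximation. Both cover counting error only. All members found were named, in 8 role groups. Other mitosis genes were named when 2-fold from the control at either dose, with exceptions stated. DNA replication genes and cell type markers are given by counts, medians or sums, and their genes past 2-fold are not named. Members and lists were chosen with earlier results of these data known. Planned promoter and protein sequences were not used here. There were 8 alternatives: pseudocounts of 0.1 and 5 FPKM, no filter, a mean of 5 FPKM, 3 rescalings (equal sums, median ratio, TMM on recovered fragments) and subtraction of the median of genes of like length in 20 bins. Python 3.11.15, numpy 2.4.6, pandas 2.3.3, scipy 1.17.1 and matplotlib 3.10.9 were used.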

Additional observations from a re-analysis of the deposited data

Results flagged for a closer look

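The log2 difference of the cyclin gene ccnb2 from the control had opposite signs at the 2 doses, 0.306 at 3 ng and -0.0481 at 6 ng. Its fold at 6 ng was 0.963 with an interval that held 1 (0.787 to 1.18). At that dose it thus did not differ from the control beyond counting error. The direct fold between the morphant libraries was 0.762 (0.633 to 0.915), an interval of counting error only from 188 to 323 fragments, and with 1 library per dose the difference between doses was not tested.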

How the results depend on the processing

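The median of the 42 genes stayed negative under all 8 alternatives in each comparison. Relative to the median of all genes it lay between -0.31 and -0.411 at 3 ng and between -0.484 and -0.666 at 6 ng. Of the 42 genes, 37 were below 0 and 4 above 0 under every alternative at 3 ng, with racgap1 changing sign, and 39 and 3 at 6 ng. The pseudocounts and filters cannot change the sign of a gene, so only the rescalings and the length subtraction could do so. Against the control, each of the 3 rescalings put the median of the 42 genes lower. Between doses, 36 were below 0 and 1 above 0 under every alternative. The signs of cdk1, cdca8, kif20a, prc1a and ube2c were mixed there. A pseudocount of 5 FPKM shrinks differences by construction. At 3 ng it gave 5 genes at least 1.5-fold lower in place of 8, beside 3.13% of all genes in place of 9.49%. At 6 ng it gave 12 genes at least 1.5-fold lower in place of 18, beside 5.42% of all genes in place of 12.2%. At 2-fold it gave 1 gene lower at 6 ng in place of 4, beside 1.31% of all genes in place of 4.53%. Between doses it gave 0 genes at least 1.5-fold lower in place of 1, beside 0.974% of all genes in place of 3.79%. Rescaling to equal sums gave 14 genes at least 1.5-fold lower at 3 ng, beside 11.8% of all genes. At 6 ng the median ratio and TMM each gave 22 genes at least 1.5-fold lower, beside 14.9% and 14.8% of all genes. The cytokinesis group's median at 3 ng, -0.063, became 0.039 with genes of like length subtracted, and the cause was not tested. Other medians and counts kept their direction, but some role group medians differed in size. With genes of like length subtracted, the kinetochore median went from -0.36 to -0.29 at 3 ng and from -0.58 to -0.45 at 6 ng. The motor median went from -0.51 to -0.41 at 3 ng. In the other direction, the median of kinases and cyclins went from -0.25 to -0.40 at 6 ng. Of all genes, 750 were 2-fold lower at 3 ng with a pseudocount of 0.1 FPKM and 79 with 5 FPKM, in place of 361, and at 6 ng 1171 and 215 in place of 745. No paired analysis was possible because each group has 1 library and the labels give no replicate numbers. Genes from few fragments, such as cenpk, are the least certain, and the spread between pools of embryos is unknown.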
